A study of Mus musculus with 2 samples.

Results

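Potassium channels let potassium ions leave or enter a cell, and this account follows every gene named as one of their subunits on an expression array of mouse calf muscle. The members were all genes with a non-control probe whose name on the array begins with Kcn followed by a letter. This rule used names and no measured value, and it found 95 genes with 136 probes among 25509 named genes and 39418 non-control probes. Grouped by symbol, 40 genes encode pore-forming subunits of voltage-gated channels and 12 their accessory subunits. A further 15 encode inward rectifiers, 12 calcium-activated channels and their relatives, and 14 two-pore channels. The other 2 names are no channel subunits: Kcnq1ot1 is a long non-coding RNA read antisense to Kcnq1, and Kcnrg encodes a soluble regulator.

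The muscle was the gastrocnemius of male C57BL/6 mice aged 9 weeks, either control mice or mice immobilized with a plaster cast for 11 days. RNA from 6 mice per group is described as pooled, and each pool was measured on 1 array with a single dye. A group of 1 array has no replicate, no spread between mice and no test, so sizes are given without p-values and each difference compares these 2 pools. Each pool is whole muscle, with fibres, vessels, nerve and blood-derived cells, so fewer cells of a type and less RNA per cell cannot be told apart.

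At rest, a muscle fibre is kept negative by potassium and chloride channels, and voltage-gated potassium channels end each action potential. Most voltage-gated potassium channels are built of 4 pore-forming subunits, some of which are silent alone and only alter the channel of a partner. Inward rectifiers hold the resting potential and recover potassium in the transverse tubules, the channels blocked by ATP couple it to metabolism, and small-conductance calcium-activated channels are known from denervated rodent muscle, where they give a long after-hyperpolarisation.

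Signals are given as scaled signal, in which 100 is the 75th percentile of that array's non-control probes, and log2 ratios are cast over control. Log2 values compare the same probe on both arrays, and levels of different probes are not comparable. A gene counted as measured when the scanner software marked a probe as well above background on both arrays, and it takes the brightest such probe. By this filter 43 of the 95 genes were measured, while 3 passed on the cast array alone, 7 on the control array alone and 42 on neither array. Among pore-forming voltage-gated subunits 18 of 40 were measured, against 5 of 12 accessory subunits, 5 of 15 inward rectifiers, 6 of 12 calcium-activated channels and relatives, and 7 of 14 two-pore channels. Both other names were measured.

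Of the 43 measured genes, 4 differed at least 2-fold, where 4.34% of all measured genes did. In cast muscle 1 was higher by that much (Kcnq5) and 3 were lower (Kcng4, Kcnab1 and Kcnj12). Among all 15154 measured genes the 2-fold threshold was passed upwards by 2.23% and downwards by 2.11%, so 1 of 43 is near the background for higher genes and 3 of 43 (6.98%) lies above it for lower ones. At least 1.5-fold differences were found for 10 of the 43, where 15.3% of all measured genes passed. Of the 10, 4 were higher and 6 lower, beside 7.04% and 8.24% of all. The median log2 ratio of the 43 was -0.18, with 15 above 0 (34.9%), beside a median of -0.03 and 46.9% above 0 over all measured genes. These counts move with the scaling. Without scaling 3 were at least 2-fold higher and 2 lower, beside 5.50% and 0.792% of all measured genes. At 1.5-fold 8 were higher and 4 lower, beside 23.7% and 2.67% of all, and 30 were above 0. Leaving out the scaling shifts every log2 ratio up by 0.34.

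Among replicate spots of 1 probe, the SD of the log2 ratio (spot-level SD) was 0.15 for dim, 0.094 for middle and 0.078 for bright signals, which covers the error of single spots alone. Differences beyond 2 such SDs were held by 26 of the 43 genes (60.5%) and by 56.5% of all measured genes. Another 10 lay within 1 SD of 0, among them Kcna4, Kcnh3, Kcnj2, Kcnj13, Kcnk13, Kcnk15, Kcnk16, Kcnq1 and Kcnq1ot1.

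**Figure D1:**
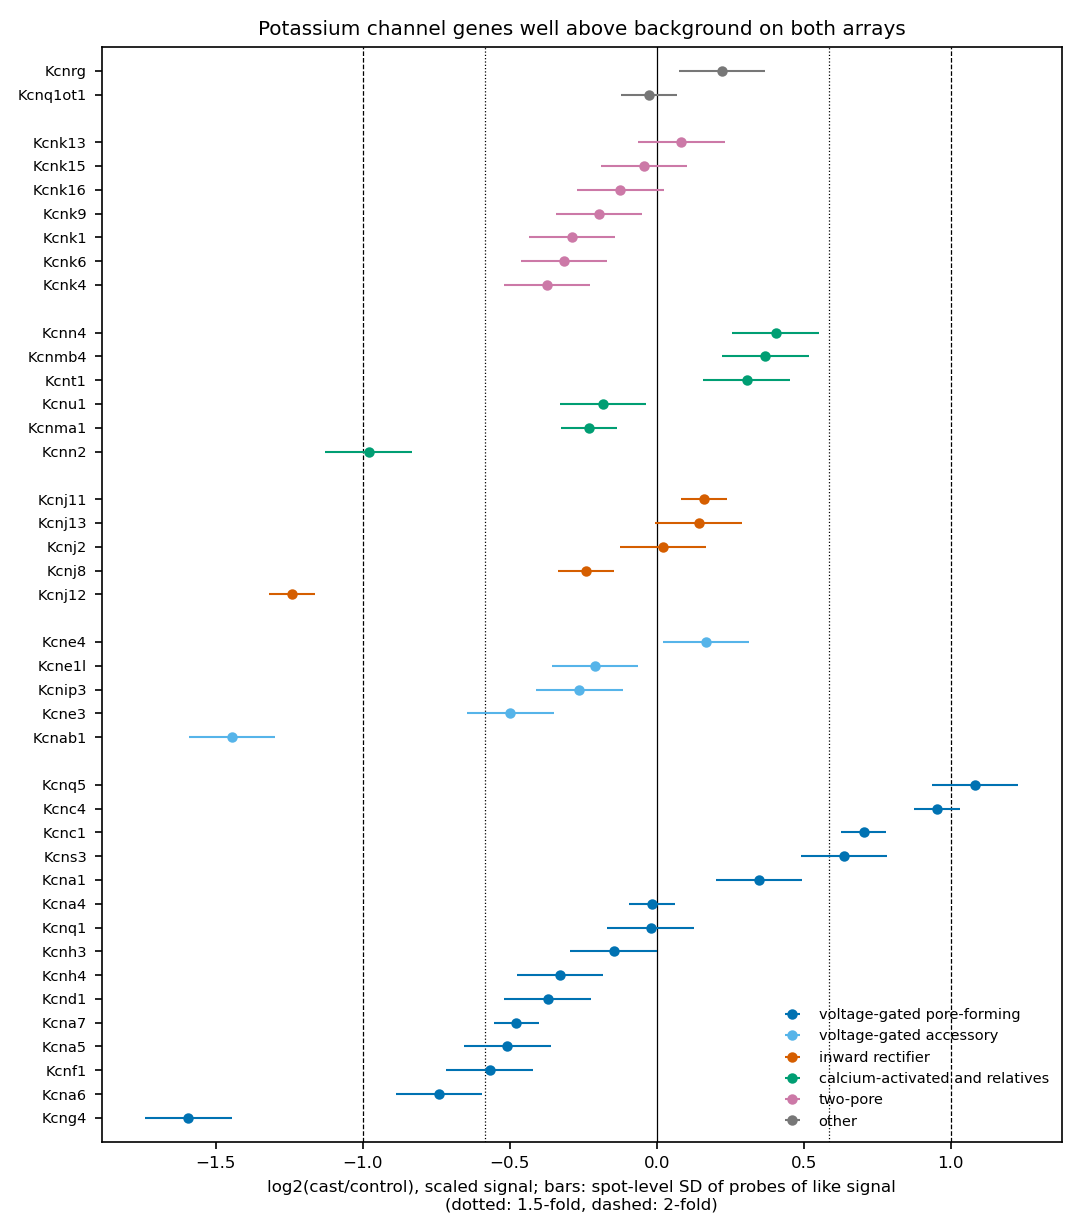
Log2 ratio of cast over control for 40 of the 43 measured potassium channel genes (1 point per gene, 1 array per group), grouped by family, with bars of 1 spot-level SD. Kcnq5 is the highest at 1.08 and Kcng4 the lowest at -1.59, and 14 of the 40 points lie above 0.

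The pore-forming voltage-gated subunits held the highest and the lowest log2 ratio of the 43 genes. Their median was -0.24, with 6 of 18 above 0 (10 of 18 without scaling). Members of the Kcnq family form slow channels that damp repeated firing, and Kcnq5 and Kcnq3 were higher in cast muscle. Kcnq5 had a scaled signal of 17.8 ± 2.01 (the software's error of the spot) in control muscle and 37.7 ± 3.95 in cast muscle. That is 2.12-fold higher in cast muscle, with a log2 ratio of 1.08. A second Kcnq5 probe had 1.60 and 3.35, not well above background on either array, and its log2 ratio was 1.07.

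Kcnq3, best known as a subunit of the M-current channel of neurons, was not well above background on the control array, at 0.796 ± 0.79, and reached 19.3 ± 2.17 on the cast array. Against the lowest signal well above background on the control array, 3.40, this is at least 5.67-fold higher (at least 1.95-fold with the other background correction). Kcnq1, of heart and epithelia, had 8.85 in control and 8.73 in cast. The values of Kcnq3 and Kcnq5 each rest on 1 probe well above background. The Kcnq3 probe (mm9, chr15:65826897-65826956, minus strand) and the dimmer Kcnq5 probe (chr1:21392496-21392555, minus strand) are printed whole, and the brighter Kcnq5 probe (chr1:21389067-21389126, minus strand) by its first 30 bases, since they show which piece of transcript each value stands for.
Kcnq3 probe: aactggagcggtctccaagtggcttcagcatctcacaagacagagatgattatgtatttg
Kcnq5 dimmer probe: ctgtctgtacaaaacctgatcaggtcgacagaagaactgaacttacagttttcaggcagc
Kcnq5 brighter probe: aggaagttacctaaaacatgtttgccacgt

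Subunits of the Kcnc family make channels that open and close fast and keep action potentials short. Kcnc4 had 358 ± 35.8 in control and 693 ± 69.3 in cast muscle, 1.94-fold higher with a log2 ratio of 0.95. Its only probe lies at mm9 chr3:107241564-107241623. Kcnc2 was well above background on neither array.

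For Kcnc1 the answer depended on the probe. The brightest probe, for transcript NM_008421, had 272 in control and 444 in cast, 1.63-fold higher with a log2 ratio of 0.70. A second probe for the same accession had 141 and 161, with a log2 ratio of 0.18. The last, for NM_001112739, had 47.6 and 28.9, with a log2 ratio of -0.72. All 3 were well above background on both arrays, and their mean log2 ratio was 0.06. Their places on chromosome 7 of mm9, all on the plus strand, lie kilobases apart. They are 53688622 to 53688681 for the brightest, 53682767 to 53682826 for the second and 53693712 to 53693771 for the last. The second is printed whole, and the brightest and the last by their first 30 bases, because they are what differs between the 3 readings.
Kcnc1 brightest probe: gccttgccgtcttgtacgacagactttttt
Kcnc1 second probe: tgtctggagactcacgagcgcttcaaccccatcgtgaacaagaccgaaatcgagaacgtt
Kcnc1 last probe: gagattcgagcatgaaataaattttgtaac

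**Figure D2:**
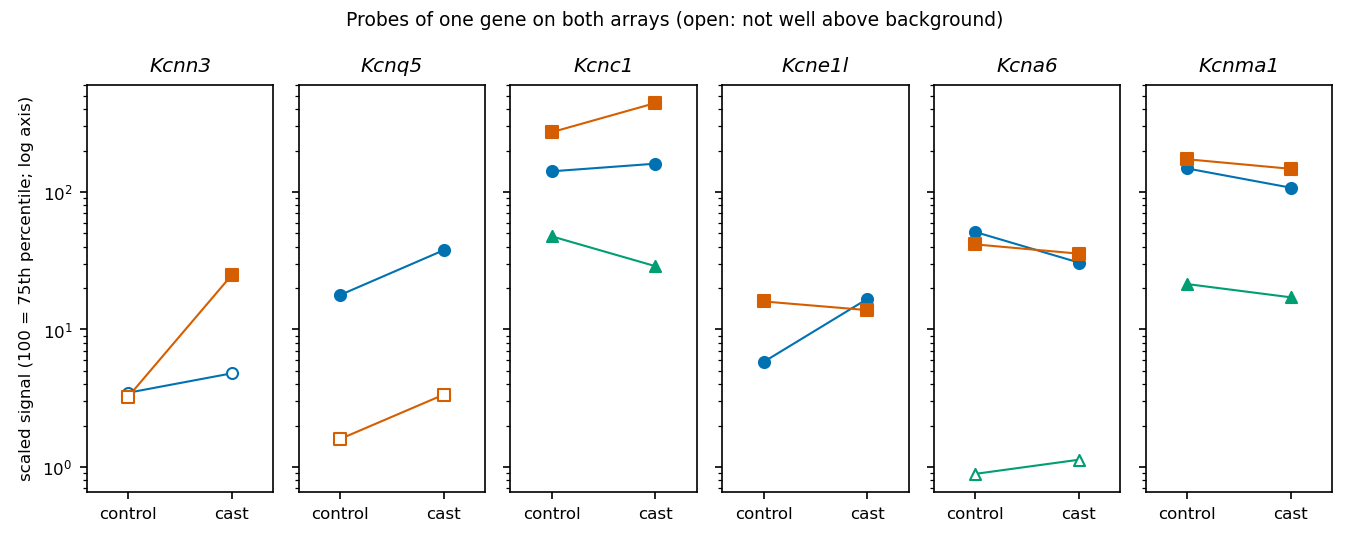
Scaled signal on the control and the cast array (log axis) for each probe of 6 potassium channel genes with several probes, 1 line per probe, with open symbols where it was not well above background. The 3 Kcnc1 probes have log2 ratios of 0.70, 0.18 and -0.72, and the second Kcnn3 probe stays low on both arrays, at 3.47 and 4.80.

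Silent subunits, which form no channel alone and change the gating of a partner, included the lowest member of all. Kcng4 had 67.9 ± 6.85 in control and 22.5 ± 2.52 in cast, 3.01-fold lower with a log2 ratio of -1.59. Kcnf1 had 30.4 and 20.5, with a log2 ratio of -0.57, and its second probe gave -0.59. Kcns3, another silent subunit, was 1.56-fold higher, from 4.93 ± 1.07 to 7.67 ± 1.42, close to the background limit on both arrays, and its sign turned under another background correction (log2 ratio -0.062).

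In the Kcna family, the shaker-type channels of nerve and muscle, the members differed little or were lower on the cast array, apart from Kcna1. Kcna6 had 51.2 and 30.7, 1.67-fold lower with a log2 ratio of -0.74, while its other measured probe gave -0.22. Kcna7, a channel of skeletal and heart muscle, had 2812 and 2020 (log2 ratio -0.48, second probe -0.32), and Kcna5 had 35.5 and 24.96 (-0.51, second probe -0.26). Kcna4, an inactivating channel, had 236 and 233. Kcna1, whose mutations cause episodic ataxia with myokymia in humans, had 44.2 and 56.3, with a log2 ratio of 0.35. Kcna2 and Kcna3 passed the flag for background on the control array only, at 5.63 and 5.07, against 4.77 and 3.31 on the cast array. The Kcna2 difference is a plain ratio of 1.18, and that of Kcna3 is at least 1.20-fold. Both depend on the scaling: without it their log2 values of control over cast were -0.10 and -0.08.

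Among the Kcnh channels, relatives of ether-a-go-go, Kcnh2 alone had a bound of at least 2-fold. It encodes a channel of heart repolarisation that has also been studied in muscle wasting in mice. Its scaled signal was 9.17 ± 1.38 in control muscle and 2.47 ± 1.29, not well above background, in cast muscle. Against the lowest signal well above background on the cast array, 4.23, it was at least 2.17-fold lower, and this bound was under 2-fold in 3 of 7 alternatives. Kcnh4 had 22.2 and 17.7 (log2 ratio -0.33) and Kcnh3 had 9.98 and 9.02 (-0.15). Of the transient Kcnd channels, Kcnd1 had 50.7 and 39.2 (-0.37), and Kcnd3 was well above background on the control array only, at least 1.36-fold lower. The silent subunit Kcng2 was well above background on the control array only, at 5.82 against 5.96, so it has no fold.

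Accessory subunits were lower on the cast array in 4 of 5 measured genes (2 of 5 without scaling), with a median log2 ratio of -0.26. Kcnab1 encodes a cytoplasmic beta subunit that binds shaker-type channels and speeds their inactivation. It had 55.5 ± 5.65 in control and 20.4 ± 2.42 in cast, 2.72-fold lower with a log2 ratio of -1.44. Kcnab2 and Kcnab3, the other beta subunits, were well above background on neither array. Kcne3, a single-pass subunit that pairs with Kcnc4 in muscle, had 7.86 and 5.57 (log2 ratio -0.50), and its second probe gave -0.34. Kcnip3, a calcium-binding partner of Kcnd channels, had a log2 ratio of -0.26, and Kcne4, which inhibits several channels, one of 0.17. The 2 probes of Kcne1l disagreed: the brighter went from 16.0 to 13.8 and the other from 5.80 to 16.6, log2 ratios of -0.21 and 1.52.

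The probes of the 2 lowest genes, Kcng4 (mm9, chr8:122148827-122148886, minus strand) and Kcnab1 (chr3:65181718-65181777, plus strand), and that of Kcnj12, the next lowest (chr11:60884556-60884615, plus strand), are shown by their first 30 bases, as each gene has this 1 probe and its value rests on it.
Kcng4 probe: gccagctggactctgggtggacattcctag
Kcnab1 probe: ggggtttttgttgttgttttgttttctgta
Kcnj12 probe: tcaggctgcttgtgaccatgttaacgattc

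Among the inward rectifiers, Kcnj12 stood apart from the 4 other measured genes. Kcnj12 and Kcnj2 encode the classical strong inward rectifiers of muscle, which hold the resting potential. Kcnj12 had 684 ± 68.4 in control and 290 ± 29.0 in cast, 2.36-fold lower with a log2 ratio of -1.24. Kcnj2 had 41.7 ± 4.23 and 42.3 ± 4.32, a log2 ratio of 0.02 that lies within the spot-level SD. The pore subunits of the channels blocked by ATP also differed little: Kcnj11, of skeletal muscle, had 286 and 319 (log2 ratio 0.16, second probe 0.00), and Kcnj8, of vascular cells, had 71.3 and 60.3 (-0.24). Kcnj13, a rectifier of epithelia and retina, had 11.3 and 12.5. Kcnj15 was well above background on the control array only, at least 1.27-fold lower, but its log2 bound was -0.01 with scaling on the spike-in controls. The other 9 genes of the family, among them the G-protein-gated Kcnj3, Kcnj5, Kcnj6 and Kcnj9, were well above background on neither array.

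Of the calcium-activated channels, the small-conductance members Kcnn2 and Kcnn3 went opposite ways. They encode closely related channels opened by calcium through bound calmodulin. Kcnn2 had 34.1 in control and 17.3 in cast, 1.97-fold lower with a log2 ratio of -0.98. It was spotted 10 times on each array, with an SD between its spots of 0.14 log2 units in control and 0.16 in cast, which covers the error of spots within an array alone. The log2 ratio was -0.64 without scaling and with the other background correction.

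Kcnn3 was not well above background on the control array, at 3.25 ± 0.80, and reached 24.9 ± 2.65 on the cast array, at least 7.33-fold higher. Its bound exceeded 2-fold in all 7 alternatives that give one, the lowest being 2.15-fold. A second Kcnn3 probe had 3.47 ± 1.06 and 4.80 ± 1.36, well above background on neither array, with a log2 ratio of 0.47. The difference thus rests on 1 of 2 probes. That probe lies at mm9 chr3:89476303-89476362 on the plus strand, and the other spans a splice junction, from 89465136 to 89466660 over 1525 bases of genome. The first is shown by its first 30 bases and the second whole, as they are what differs between the readings.
Kcnn3 probe well above background in cast: gcatcttgcctctgtactgcttgctatttt
Kcnn3 junction probe: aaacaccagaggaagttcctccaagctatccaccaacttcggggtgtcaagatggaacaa

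The remaining channels of this family differed by less than 1.5-fold. Kcnma1, the pore of the large-conductance channel, had 173 and 148 (log2 ratio -0.23), and its other probes gave -0.46 and -0.32. Kcnn4, the intermediate-conductance channel of red and white blood cells, had 6.44 and 8.53 (0.40). Kcnmb4, a beta subunit of the large-conductance channel, had 4.70 and 6.08 (0.37), while its second probe was well above background on the control array only. The sodium-activated Kcnt1 had 6.26 and 7.75 (0.31), and Kcnu1, known from sperm, had 22.9 and 20.2 (-0.18). Kcnt2, a relative of Kcnt1, was well above background on the control array only, at least 1.03-fold lower. Without scaling its log2 bound was -0.29, so its direction depends on the scaling.

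Two-pore channels carry background current, and 6 of their 7 measured genes had log2 ratios below 0, with a median of -0.20 and none at 1.5-fold. The values ran from -0.37 for Kcnk4, a channel opened by stretch and lipids, through Kcnk6 (-0.31), Kcnk1 (-0.29), Kcnk9 (-0.20), Kcnk16 (-0.12) and Kcnk15 (-0.04) to 0.08 for Kcnk13. All but Kcnk4 would have a value above 0 without scaling. Kcnk5, a channel opened by alkaline pH, was the exception on the array. It was not well above background in control, at 2.20 ± 0.74, and reached 12.0 ± 1.49 in cast, at least 3.53-fold higher. Its bound was under 2-fold in 1 of 7 alternatives, at 1.46-fold with the other background correction. Its single probe lies at mm9 chr14:20959684-20959743 on the minus strand, and its first 30 bases are rich in A and T.
Kcnk5 probe: aatattttttaatgaactgttatttttata

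Kcnk5, Kcnn3 and Kcnq3 were the only potassium channel genes well above background on the cast array alone, 3 of 53 that were so on at least 1 array. Among all 16484 such genes 1.29% were seen on the cast array alone, and 0.485% with a bound of at least 2-fold, which all 3 passed. The opposite set of 7 genes stands beside 6.76% of all genes, and of these Kcnh2 alone had a bound of at least 2-fold, which 0.504% of all genes had. The arrays themselves differed in how many probes passed the flag, 60.6% on that of control and 56.8% on that of cast muscle.

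**Figure D3:**
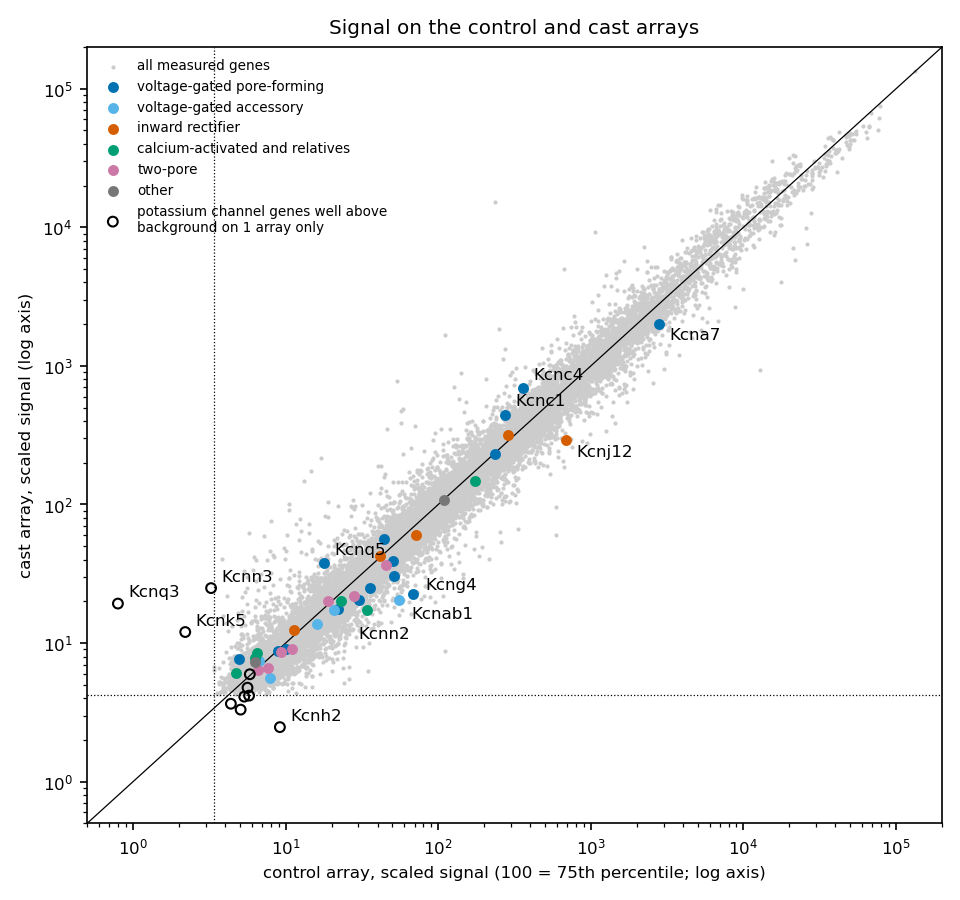
Scaled signal on the control array against that on the cast array (both axes logarithmic) for 40 of the 43 measured potassium channel genes (filled, coloured by family), the 10 well above background on 1 array only (open) and all measured genes (grey), with a line of equal signal and dotted lines at the lowest signal well above background. Kcnn3, Kcnq3 and Kcnk5 lie left of the dotted line at 3.40, and Kcnh2 lies under the one at 4.23, at 2.47.

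Both non-subunit names differed by less than 1.5-fold. The non-coding RNA Kcnq1ot1 had 110 and 108, with log2 ratios of -0.03 and -0.21 for its 2 probes, and Kcnrg had 6.31 and 7.36 (0.22).

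Proteins that travel with these channels were counted from lists of known partners. Of 9 partners of the ATP-blocked and voltage-gated channels 6 were measured, 2 above 0 and 4 below (5 and 1 without scaling), with a median log2 ratio of -0.30. Abcc9, the sulphonylurea receptor that joins Kcnj11 in muscle, had 1031 and 1216 (0.24), and Abcc8, its relative of nerve and islets, 127 and 184 (0.54). Lrrc38, which shifts the gating of the Kcnma1 channel, had 391 and 214, 1.83-fold lower, and was the single member of that list past 1.5-fold.

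Clustering proteins hold channels at nodes, synapses and tubules, and all 8 measured of 12 had log2 ratios below 0, with a median of -0.23, while without scaling 3 of the 8 were below 0. Cntnap2, which gathers shaker-type channels beside the nodes of myelinated axons, had 43.5 and 22.3, 1.95-fold lower. Dlg4, a synaptic scaffold that binds the tails of such channels, was well above background on the control array only, at least 2.64-fold lower, and Lgi1, a secreted protein of the same complexes, at least 1.52-fold lower. The bounds of Dlg4 and Lgi1 were not run under the alternatives. Of all genes well above background on at least 1 array, 6.76% were so on the control array only. A bound of at least 2-fold on that array only was held by 0.504%. Among the clustering proteins 1 of 8 measured passed 1.5-fold downwards, beside the 8.24% of all measured genes.

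Transporters that take potassium back up, the sodium pump and its relatives, differed little. All 11 were measured, 5 above and 6 below 0 (8 and 3 without scaling), with a median of -0.05 and none past 1.5-fold. Fxyd1, a regulator of the pump in muscle, had 14957 and 12795 (log2 ratio -0.23). Of 9 channels related through cyclic nucleotide binding 3 were measured, all below 0 (2 of 3 without scaling). The pacemaker channel Hcn2 had 2905 and 1673, 1.74-fold lower, and Cnga3 was well above background on the control array only, at least 2.97-fold lower. That bound was not run under the alternatives, and 0.504% of all genes had a bound of at least 2-fold on the control array only.

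A list of 18 potassium channels known from muscle physiology held 14 measured genes, 5 above and 9 below 0 (7 and 7 without scaling), with a median of -0.40. Of these, 3 were at least 1.5-fold higher, beside 7.04% of all measured genes: Kcnc4, Kcnq5 and Kcnc1, whose 3 probes disagree. Another 3 were at least 1.5-fold lower, beside 8.24% of all, among them Kcnj12 and Kcnn2. Kcne1 of that list was well above background on neither array.

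Marker genes of the cell types in the muscle had the following values, and their part in the channel values was not tested. The 8 skeletal fibre markers were all measured, with 1 above and 7 below 0 (5 and 3 without scaling), a median of -0.24 and a summed scaled signal of 327711 in control and 257158 in cast. Such a sum weights its brightest probes most. Of 10 genes known to be higher in denervated fibres, 8 were above 0 and 4 at least 2-fold higher: Runx1 (log2 ratio 3.23), Chrnb1 (1.98), Chrna1 (1.55) and Gadd45a (1.30). Their summed signal was 829 in control and 1932 in cast, and 523 and 1033 without Chrna1. Of the small-conductance channels, Kcnn3 was higher by 1 of its 2 probes and Kcnn2 was lower. A link of either channel to these genes was not tested.

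Schwann cell and nerve markers had 8 of 10 measured, 3 above and 5 below 0 (6 and 2 without scaling), none past 1.5-fold, and sums of 1030 and 1010, with the neurofilaments Nefl and Nefm well above background on neither array. Neuronal markers were well above background on both arrays for 1 of 6 genes, Snap25 (-0.61). Macrophage markers had 8 of 10 measured, 6 above and 2 below 0, with Aif1 at 1.17 and sums of 2346 and 2089, and Cd68 and Cd163 were well above background on neither. Itgam alone sets the direction of that sum, which was 965 in control and 1136 in cast without it. Lymphocyte markers were measured for 3 of 8 genes, with sums of 201 and 204. Smooth muscle and pericyte markers had 4 above and 6 below 0 (8 and 2 without scaling), with a median of -0.10, and endothelial markers 1 above and 7 below (5 and 3), with a median of -0.26.

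Start-site sequence was available for 11 of the 14 genes that were at least 1.5-fold different or at least 2-fold by their bound. Kcnn2 and Kcnq3 were among the others. The 250 bases before each start were searched for CANNTG, the E-box that myogenic factors bind, which reads the same on both strands, and for its form CAGCTG, which is included in it. At least 1 CANNTG was held by 67.4% of 95 promoters of 70 potassium channel genes on the array and by 66.2% of all 32851 promoters in the table. CAGCTG was held by 23.2% and 13.0%, with median GC contents of 58.4% and 52.4%. Among the 15 promoters of the 11 genes, CAGCTG occurred in 1, that of Kcng4, starting 130 bases before the start site. The promoters of the lowest gene, Kcng4 (chr8:119635681-119635930, minus strand), and of the gene with the largest bound, Kcnn3 (chr3:89519914-89520163, plus strand), are printed from RefSeq on GRCm38.p6, with CAGCTG in capitals. Kcnn3 has no CANNTG in its window.
Kcng4 promoter: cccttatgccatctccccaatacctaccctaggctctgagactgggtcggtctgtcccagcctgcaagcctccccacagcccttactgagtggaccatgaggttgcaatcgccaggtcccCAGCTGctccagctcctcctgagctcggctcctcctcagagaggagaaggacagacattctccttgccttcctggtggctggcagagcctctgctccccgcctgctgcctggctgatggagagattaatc
Kcnn3 promoter: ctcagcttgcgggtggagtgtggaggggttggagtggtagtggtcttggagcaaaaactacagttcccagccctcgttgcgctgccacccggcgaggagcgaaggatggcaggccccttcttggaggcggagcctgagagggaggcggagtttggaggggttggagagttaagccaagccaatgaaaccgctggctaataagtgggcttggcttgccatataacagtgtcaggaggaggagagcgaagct

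Over 10 other ways of processing the arrays, Kcng4 was at least 2-fold lower in 10, Kcnab1 in 9 and Kcnj12 in 8, and Kcnq5 at least 2-fold higher in 9. With normexp background correction Kcnq5 had a log2 ratio of 0.57, under 1.5-fold. Kcnc4 and Kcnn2 kept at least 1.5-fold in the same direction in all 10, Kcnc1 in 9 and Kcna6 in 6. Kcng4, Kcnab1, Kcnj12, Kcnq5, Kcnc4 and Kcnn2 each have 1 probe well above background on both arrays. For them the mean of probes and the 2 looser filters returned the reported value. The deposited table holds the same intensity on another scale, so these settings add no separate check. Kcnc1 had a log2 ratio of 0.06 when its probes were averaged.

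**Figure D4:**
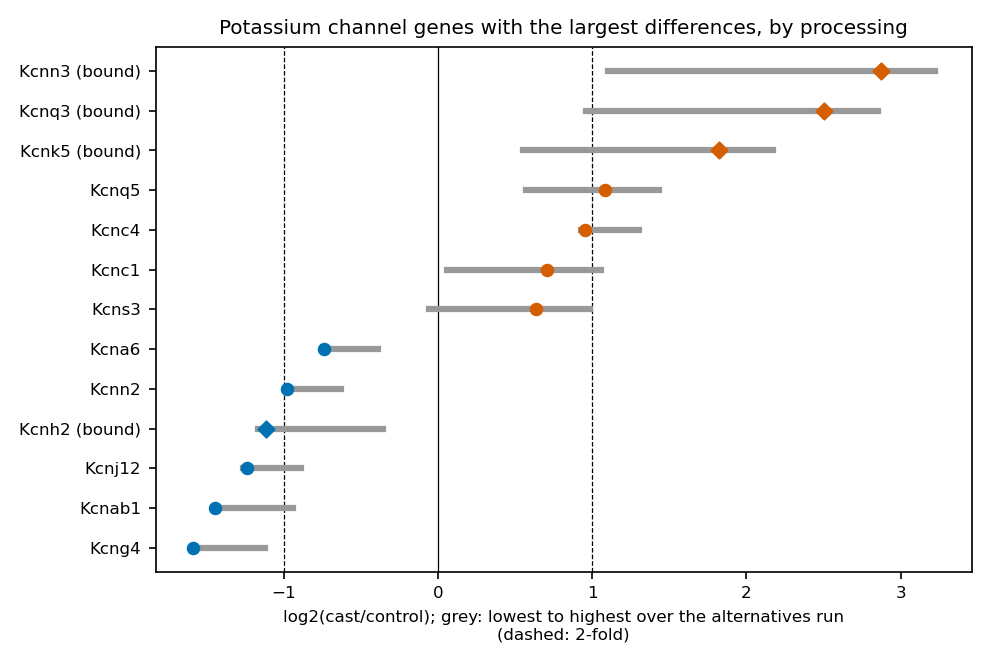
Range of the log2 ratio, or of the log2 bound, over the alternatives (grey bars) for 13 of the 14 genes at least 1.5-fold different or at least 2-fold by their bound, with the reported log2 ratio as a circle and the reported bound as a diamond. Kcng4 stays between -1.59 and -1.12, while Kcnc1 runs from 0.06 to 1.05 and Kcns3 crosses 0.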

How the data were processed

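Gene expression was measured in pooled gastrocnemius RNA of control and cast mice, 1 Agilent array of 1 colour per group. The submitters' processing notes name Agilent Feature Extraction 9.5. The deposited processed intensity is, per the file headers, background-subtracted, detrended within the array and not normalized from array to array. A deposited table of both samples was found to hold the same intensity as 100 times its ratio to the 75th percentile of all spots, with 54.9% of values rounded to whole numbers (column medians 9 in control and 8.70 in cast), so it served as an alternative only.

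Here log2 intensity was averaged over a probe's spots, without control spots and non-uniformity flags (2 and 9 spots), and each array's 75th percentile over non-control probes (385 in control, 486 in cast) was subtracted. A probe was well above background when more than 0.5 of its spots had the flag. No gene spot was saturated. The number of arrays limits the precision.

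For a gene seen well above background on a single array, the bright value was set against the higher of the dim probe's own value and the lowest signal well above background on that array. Where the dim probe's own was higher, the fold is a plain ratio. The bound takes in no spot error. A probe can also miss the flag above that lowest signal, as Kcng2 did at 5.96 on the cast array. The spot-level SD comes from 257 replicated probes. Probe names are those of the array, and 124 of 136 member probes had an accession matched in the RefSeq gene table, used for names alone. Probes of close relatives can share signal, and whether a probe lies in a coding exon or a UTR was not looked up here.

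The text names members well above background on at least 1 array, the list of muscle channels, and, of the partner lists, members at least 1.5-fold different or with the highest signal. Dlg4, Lgi1 and Cnga3, and Abcc8 and Abcc9 beside their channel subunits, were named after their values were seen, as were the members named as well above background on neither array. Single values of some genes are not reported here, while the counts include them. Members and lists were chosen with earlier results of these data known. Alternatives were no, median, quantile, cyclic loess and spike-in scaling, normexp background correction with an offset of 50, the mean of probes, 2 looser filters and the deposited table. R 4.3.3 with limma 3.58.1 and Python 3.11.15 were used, with the ratio and count steps checked on simulated data.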

Additional observations from a re-analysis of the deposited data

How the results depend on the processing

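Without scaling, 3 potassium channel genes were at least 2-fold higher and 8 at least 1.5-fold higher, with a median log2 ratio of 0.16. Scaling on the 7 spike-in controls gave 3, 8 and 0.17, beside the reported 1, 4 and -0.18. Of all measured genes 5.50% and 23.7% were higher by these folds without scaling, and 5.69% and 24.4% on the spike-ins. These scalings put the median of all genes at 0.31 and 0.32 instead of -0.03, and 15 of the 43 genes change sign without scaling. Median scaling gave 2 genes at least 2-fold higher, beside 2.65% of all measured genes, and cyclic loess a median of -0.051. With normexp background correction 0 were at least 2-fold higher and 2 at least 1.5-fold higher, beside 1.21% and 4.90% of all genes. Kcns3 turned to -0.062 in that setting, and the bounds fell to 2.15-fold for Kcnn3, 1.95 for Kcnq3, 1.46 for Kcnk5 and 1.28 for Kcnh2. The Kcnh2 bound was also under 2-fold without scaling and on the spike-ins (log2 bounds of 0.78 and 0.77). Potassium channel genes well above background on at least 1 array held 4 at least 2-fold and 7 at least 1.5-fold higher. Of all genes passing that filter 2.76% and 7.60% were higher by these folds. With no filter on dim probes the 95 genes held 4 and 7 higher, beside 2.99% and 7.76% of all 25509 genes. They held 5 at least 2-fold and 13 at least 1.5-fold lower, beside 3.45% and 10.7% of all. The reported numbers of lower genes are 3 and 6, and the median with no filter was -0.029. The cause of these shifts was not tested, apart from the genes that looser filters add and the constant that a scaling adds. No potassium channel gene reversed from at least 1.5-fold other than Kcns3. Leaving out a replicate could not be run. No paired analysis was possible because each group holds 1 array. Signal near background limits the 42 genes well above background on neither array, for which no difference could be detected.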
